A study of Homo sapiens with 6 samples.

Results

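The replication-dependent histone genes of chromosome 6 were taken as the protein-coding genes between 25.7 and 28 Mb of the GRCh38 RefSeq table whose symbol starts with H1-, H2AC, H2BC, H3C or H4C. There were 55 of them among 19974 protein-coding genes of chromosomes 1 to 22 and X, made up of 6 H1, 12 H2A, 15 H2B, 10 H3 and 12 H4 genes. Chromatin was taken from SK-N-BE(2) cells, a long-used neuroblastoma line of human origin with amplified MYCN, and was profiled by CUT&Tag, an assay in which transposase held at a bound protein by an antibody cuts the DNA around it and adds sequencing tags. HAND2 had 2 libraries (antibody ab200040), MEIS2 had 2 (sc-515470) and TCF4 had 1 (ab217668), all of the same untreated line as far as the labels say. The IgG library, the control for background, comes without a peak list here.

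Replication-dependent histone genes supply the core histones H2A, H2B, H3 and H4 and the linker histone H1 that package new DNA during S phase. They are short, mostly without introns, and their messages end in a stem-loop in place of a poly(A) tail. Many copies lie in clusters, where the coactivator NPAT gathers in nuclear histone locus bodies, and many H2A and H2B genes stand head to head around a shared promoter. The bHLH (basic helix-loop-helix) factor HAND2 acts in the sympathetic nervous system and binds E-box sequences with an E protein partner, TCF4 is such an E protein, and MEIS2 is a homeodomain factor of the TALE class that often binds beside PBX proteins.

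Peaks numbered 30410 and 33484 in the HAND2 lists, 9595 and 13871 in the MEIS2 lists (replicate 1 first) and 30704 in the TCF4 list. The pile-up at a summit is the number of fragments stacked there, and its median was 34 and 41 in the HAND2 libraries, 22 and 13 in those of MEIS2 and 60 in that of TCF4, so MEIS2 values rest on the fewest fragments. TCF4 has no replicate check, and the labels leave unsaid whether replicates are separate cultures or repeats of 1 preparation. Every peak identifier in the list of MEIS2 replicate 2 carries the word Flag, although its labels name the same MEIS2 antibody as replicate 1, so counts of genes with MEIS2 peaks are also given for replicate 1 alone; overlaps between factors and motifs are given for regions of both replicates. The lists cannot say how reads were shared between near-identical histone gene copies, which makes values at such copies uncertain.

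The promoters below are those on which the strongest and the most contrasting results turn, with the bases from 250 before to 50 after the start of transcription in the RefSeq table for GRCh38.p14, read 5′ to 3′ along the gene's strand. The window of H2AC14 (chr6:27814728-27815027, minus strand) also covers the start of H2BC14, its head-to-head partner, and the pair had peaks of all 5 libraries. H3C6 (chr6:26223928-26224227, plus strand, the first of its starts) had MEIS2 peaks only. H4C2 (chr6:26027234-26027533, minus strand) had the joint highest MEIS2 replicate 2 fold of the cluster. H1-2 (chr6:26056421-26056720, minus strand), a linker histone gene, and H2BC10 (chr6:26272681-26272980, plus strand) had peaks of all 5 libraries, and H2BC9 (chr6:26251364-26251663, plus strand) had none. Capitals mark the E-box CANNTG, the MEIS motif TGACAG, the CCAAT box bound by NF-Y, the TATA box TATAAA, the octamer ATTTGCAT bound by POU2F1 and the H1 box AAACACA, each on either strand; in H2BC10 an E-box overlaps the octamer by all but its first base.
H2AC14 with H2BC14: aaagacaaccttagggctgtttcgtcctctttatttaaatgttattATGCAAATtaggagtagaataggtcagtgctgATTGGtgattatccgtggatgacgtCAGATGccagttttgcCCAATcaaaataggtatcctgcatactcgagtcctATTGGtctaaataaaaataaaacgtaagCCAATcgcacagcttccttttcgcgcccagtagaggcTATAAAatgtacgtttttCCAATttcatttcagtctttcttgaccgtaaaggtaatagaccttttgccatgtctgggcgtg
H3C6: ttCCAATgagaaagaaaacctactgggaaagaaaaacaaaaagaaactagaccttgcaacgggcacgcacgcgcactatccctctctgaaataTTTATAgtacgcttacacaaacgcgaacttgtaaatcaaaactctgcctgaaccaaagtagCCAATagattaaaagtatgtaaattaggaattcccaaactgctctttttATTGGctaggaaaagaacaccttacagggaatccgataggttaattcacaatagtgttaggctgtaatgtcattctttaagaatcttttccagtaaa
H4C2: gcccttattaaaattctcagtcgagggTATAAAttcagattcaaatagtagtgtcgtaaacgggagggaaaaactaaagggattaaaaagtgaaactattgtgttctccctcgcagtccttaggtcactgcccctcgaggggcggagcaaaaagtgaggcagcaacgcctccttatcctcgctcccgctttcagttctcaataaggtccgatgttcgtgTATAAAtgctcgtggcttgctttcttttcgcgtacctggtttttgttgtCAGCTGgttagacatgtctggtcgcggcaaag
H1-2: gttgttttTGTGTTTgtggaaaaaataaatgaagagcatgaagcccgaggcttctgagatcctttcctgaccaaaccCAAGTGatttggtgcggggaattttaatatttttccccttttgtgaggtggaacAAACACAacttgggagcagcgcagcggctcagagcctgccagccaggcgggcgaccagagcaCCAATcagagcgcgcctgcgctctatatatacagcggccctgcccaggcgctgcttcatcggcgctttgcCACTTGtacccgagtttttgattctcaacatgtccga
H2BC10: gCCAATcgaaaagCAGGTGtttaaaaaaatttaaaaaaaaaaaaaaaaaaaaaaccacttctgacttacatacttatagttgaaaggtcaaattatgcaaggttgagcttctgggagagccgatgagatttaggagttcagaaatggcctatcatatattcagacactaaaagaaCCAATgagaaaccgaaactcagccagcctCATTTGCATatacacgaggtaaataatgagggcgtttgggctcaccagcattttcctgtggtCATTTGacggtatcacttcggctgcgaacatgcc
H2BC9: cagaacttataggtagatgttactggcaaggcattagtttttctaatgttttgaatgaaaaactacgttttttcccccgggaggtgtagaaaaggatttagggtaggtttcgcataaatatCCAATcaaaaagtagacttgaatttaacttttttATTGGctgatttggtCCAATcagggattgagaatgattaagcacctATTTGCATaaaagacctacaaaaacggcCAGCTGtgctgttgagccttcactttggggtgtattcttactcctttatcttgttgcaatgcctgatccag
None of these 6 windows held TGACAG. The H2AC14 window held the octamer, a TATA box and 5 CCAAT boxes, and the H2BC9 window, at a gene without a peak, held the octamer, 3 CCAAT boxes and an E-box.

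MEIS2 peaks lay at most of the histone genes. A gene was counted where a peak overlapped it or the 1 kb on either side. MEIS2 replicate 1 had a peak at 44 of 55 histone genes (80.0%), against 19.5% of all protein-coding genes, and replicate 2 at 38 (69.1%), against 14.3%. Regions in which peaks of both MEIS2 replicates overlapped by at least 1 bp reached 33 histone genes (60%), against 4.36% of all protein-coding genes. These 33 genes made up 3.79% of the 870 genes with such a MEIS2 region, while the histone genes were 0.275% of all genes. Longer genes offer more room for a peak, and the longest histone gene as annotated spanned 13229 bp. Among the 6922 protein-coding genes no longer than that, 98 (1.42%) had a MEIS2 region, and 33 of those 98 (33.7%) were the histone genes. Most histone genes are far shorter than 13229 bp, so this set was not matched to them in length. These shares describe the lists, and no test was made of them.

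With all peaks and 1 kb around the gene, HAND2 shares lay above those of all genes by less than the MEIS2 shares did. The TCF4 share lay below that of all genes. HAND2 replicate 1 had a peak at 29 histone genes (52.7%), against 33.8% of all protein-coding genes, and replicate 2 at 24 (43.6%), against 39.8%. Regions of both HAND2 replicates reached 20 histone genes (36.4%), against 30.6% of all genes. Among genes no longer than the longest histone gene the HAND2 shares were 21.1% and 27.9% in replicates 1 and 2 and 19.2% for regions of both. TCF4 had a peak at 19 histone genes (34.5%), against 60.6% of all genes and 50.1% of genes no longer than the longest histone gene. That set was not matched in length, and the part of length in the TCF4 difference was not tested. Peaks of all 5 libraries fell at 13 histone genes (23.6%), against 5.94% of all genes. These peaks need not overlap, and at H2BC5, H3C11 and H4C13 no single merged region held all 5 libraries. With 0.5 kb around the gene the count was 9 (16.4%), against 5.81% of all genes. Without MEIS2 replicate 2 the share of histone genes with peaks of every other library was still 23.6%, while that of all genes was 14.8%, and without MEIS2 replicate 1 they were 23.6% and 8.38%. No library had a peak at 9 histone genes (16.4%), against 32.8% of all genes.

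**Figure D1:**
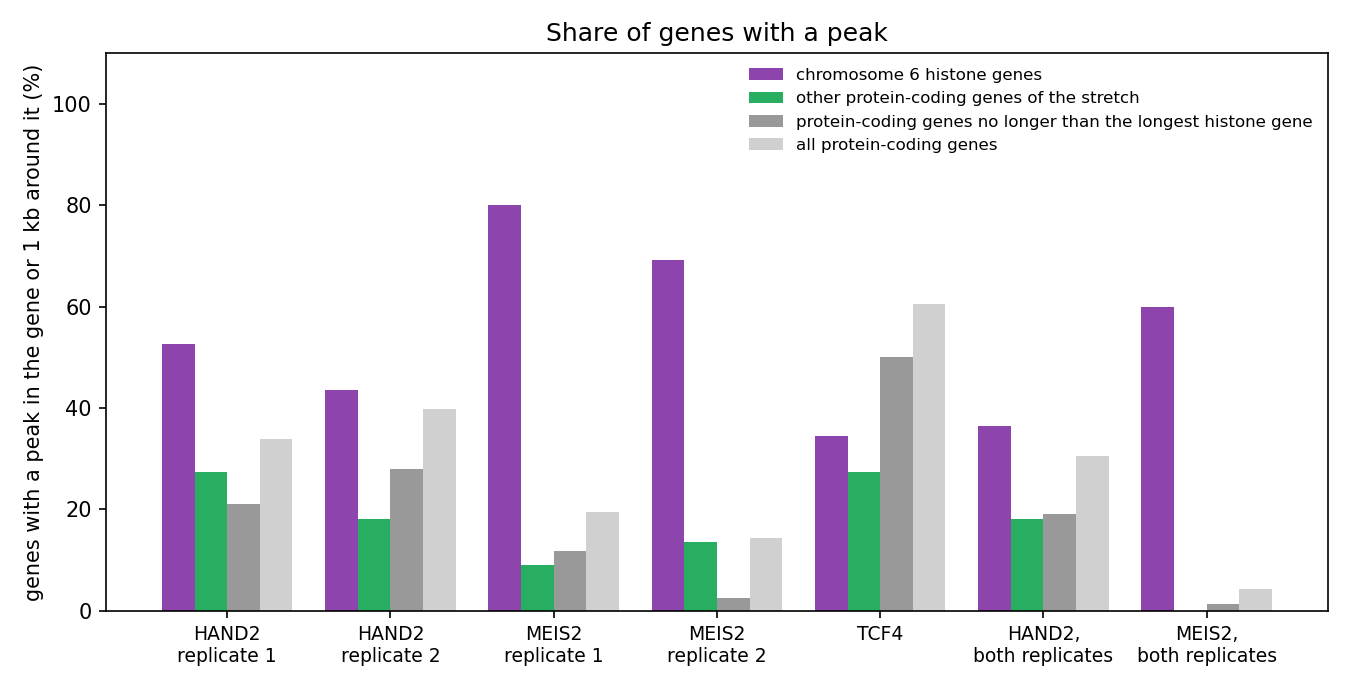
Bars give the percentage of genes with a peak in the gene or 1 kb around it, for the 55 histone genes and 3 sets of other genes, in each library and, at the right, for regions of both replicates. MEIS2 replicate 1 reached 80.0% of histone genes and 19.5% of all genes, and TCF4 34.5% and 60.6%.

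The other genes of the same stretch had MEIS2 shares near or below those of all genes. Of the 22 other protein-coding genes between 25.7 and 28 Mb, 2 (9.09%) had a peak of MEIS2 replicate 1, against 19.5% of all genes, 3 (13.6%) of replicate 2, against 14.3%, and 0 a region of both replicates, against 4.36%. HAND2 regions of both replicates reached 4 of the 22 (18.2%, against 30.6% of all genes), and TCF4 peaks reached 6 (27.3%, against 60.6%). Of the peaks in the stretch, 34 of 43 (79.1%) in MEIS2 replicate 1 and 33 of 51 (64.7%) in replicate 2 lay at the histone genes. For HAND2 the figures were 21 of 36 (58.3%) and 20 of 37 (54.1%), and for TCF4 14 of 23 (60.9%). The background under the summits at the histone genes amounted to a median of 7.0 and 4.80 IgG fragments in MEIS2 replicates 1 and 2, of 5.58 and 5.26 in the HAND2 libraries and of 6.26 in that of TCF4, with a highest value of 16 in any library. Over all peaks of these lists the medians were 10.8 and 2.08 in MEIS2 replicates 1 and 2, 6.99 and 8.01 in the HAND2 libraries and 14 in that of TCF4. The median of the histone gene peaks thus lay above the list median in MEIS2 replicate 2 alone. That list median, 2.08, equals the lowest value at the histone gene peaks of the same library, whose median of 4.80 was below that of every other library. The part of this background in the MEIS2 replicate 2 counts was not tested.

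Histone genes outside the stretch, and genes of like function, were counted in the same way. Of 15 replication-dependent histone genes elsewhere, 6 had a peak of MEIS2 replicate 1, against 19.5% of all protein-coding genes. A region of both MEIS2 replicates fell at 3 of the 15, against 4.36% of all protein-coding genes. These 3 are neighbours on chromosome 1 that share that region: H2BC21, H2AC20 and H2AC21. Its folds were 6.33 and 5.14 in MEIS2 replicates 1 and 2. TCF4 had a peak at 10 of the 15 (66.7%, against 60.6%), and HAND2 regions reached 2 (13.3%, against 30.6%). Histone variants are made outside S phase or replace the core histones at particular sites. Of 12 genes for them, 7 had a peak of MEIS2 replicate 1 (58.3%, against 19.5% of all protein-coding genes). A peak of MEIS2 replicate 2 fell at 1 (8.33%, against 14.3%), a region of both replicates at 0 (against 4.36%) and a TCF4 peak at 10 (83.3%, against 60.6%). H2AX, the variant phosphorylated at DNA breaks, had a TCF4 fold of 8.79 and H3-3B, which encodes the replacement histone H3.3, one of 10.7. Of 19 genes whose products transcribe histone genes or process their messages, 6 had a peak of MEIS2 replicate 1 (31.6%, against 19.5% of all protein-coding genes), 4 of replicate 2 (21.1%, against 14.3%) and 0 a region of both replicates. HAND2 regions reached 11 of the 19 (57.9%, against 30.6% of all protein-coding genes) and TCF4 peaks 16 (84.2%, against 60.6%). These lists were not matched for gene length. SLBP, which binds the stem-loop of histone messages, had a TCF4 fold of 9.47 and no HAND2 or MEIS2 peak. NPAT likewise had a TCF4 peak only, of fold 2.67. HINFP, an activator of H4 genes, had folds of 6.98 and 6.63 in HAND2 replicates 1 and 2, 5.10 in MEIS2 replicate 1 and 5.33 for TCF4. POU2F1, which binds the octamer, was the one gene of the 19 with peaks of all 5 libraries.

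Neighbouring histone genes shared peaks. Merged over libraries, the peaks at the 55 genes formed 42 regions of 370 to 2817 bp (median 1001 bp), of which 25 reached 1 histone gene, 16 reached 2 and 1 reached 3. In 6 regions all 5 libraries had a peak, in 10 regions 4 libraries, in 5 regions 3, in 10 regions 2 and in 11 regions 1. MEIS2 replicates 1 and 2 had peaks in 33 and 31 of the 42 regions, HAND2 replicates in 20 and 19, and TCF4 in 13. Genes are therefore not independent of each other, and counts over genes count a shared peak more than once.

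Fold is the authors' ratio of the pile-up at the summit to the local background, with 1 added to both. It ranks peaks within 1 list only. The intervals given are exact 95% Poisson limits for the pile-up over a fixed background, turned into folds in the same way. They cover counting error only, since the fragments may not be independent molecules. At the histone genes the fold had a lowest, median and highest value of 2.79, 4.45 and 12 in HAND2 replicate 1 and of 2.92, 4.41 and 14.8 in replicate 2. In MEIS2 replicate 1 they were 3.76, 6.44 and 15.8, in replicate 2 they were 3.33, 5.67 and 11.3, and for TCF4 they were 2.60, 5.33 and 8.85. These are middling peaks in each list, with a median percentile of fold of 40.3 and 45.5 in the HAND2 lists, 57.4 and 35.4 in the MEIS2 lists and 54.4 in the TCF4 list.

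**Figure D2:**
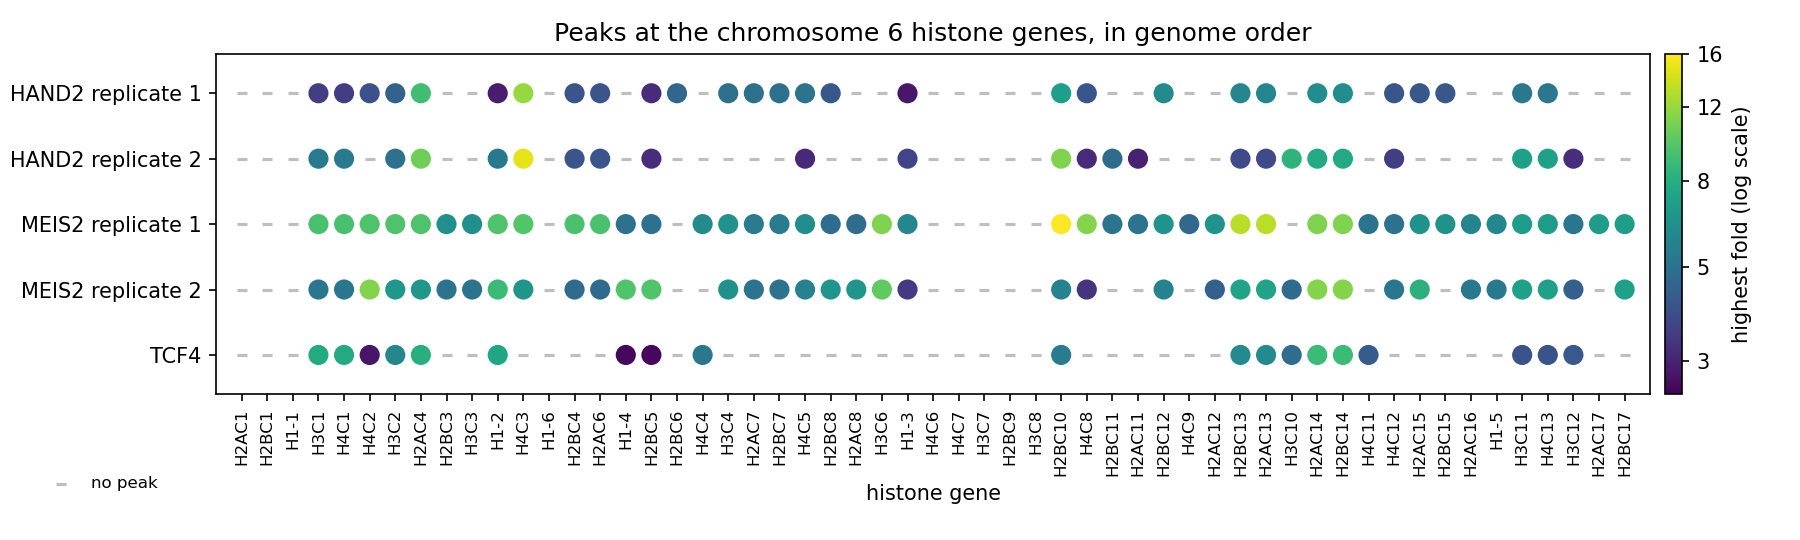
Each column is a histone gene in genome order and each row a library; colour gives the highest fold of a peak in the gene or 1 kb around it, and a grey dash marks no peak. MEIS2 replicate 1 has 44 coloured genes and TCF4 19, and 9 genes have dashes in all 5 rows.

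By fold, the strongest region in common was that of the H2A and H2B pair H2AC14 and H2BC14 (chr6:27813975-27815539). It ranked highest among the histone genes by its weakest library. Its pile-ups were 15 and 21 fragments in HAND2 replicates 1 and 2, 16 and 19 in those of MEIS2 and 22 for TCF4. The background under them was only 2.00 to 2.09 IgG fragments. The region of H3C1 and H4C1 had lower folds from pile-ups of 41, 54, 43, 14 and 67 in the same order, over 5.17 to 15.0 IgG fragments. At H2AC14 and H2BC14 the fold was 6.21 (3.64 to 9.98) and 7.68 (4.89 to 11.6) in HAND2 replicates 1 and 2. In MEIS2 replicates 1 and 2 it was 11.2 (6.68 to 17.8) and 11.3 (7.05 to 17.4), and for TCF4 it was 8.85 (5.69 to 13.2). The MEIS2 values stood at percentiles 87.5 and 86.7 of their lists, and the TCF4 value was the highest at any histone gene. The summits did not coincide across factors. Both HAND2 summits lay at the same base, 301 bp into H2BC14. The MEIS2 summits lay 7 bp before the H2BC14 start, within the promoter printed above, and 137 bp after it, while the TCF4 summit lay 169 bp into H2AC14 on the other side.

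The neighbouring H2B and H2A pair H2BC13 and H2AC13 (chr6:27806717-27808915) also had peaks of all libraries. Its fold was 5.83 and 3.78 in HAND2 replicates 1 and 2, 13.2 and 7.36 in MEIS2 replicates 1 and 2, and 6.03 for TCF4. Its summits lay up to 851 bp from the nearest start, and those of the MEIS2 replicates lay in different genes of the pair. In 44 of 251 stretches of 50 bases (17.5%), the promoters of this pair were identical to those of H2AC14 and H2BC14, so reads of the pairs may not be fully separate.

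There were 9 head-to-head H2A and H2B pairs, whose starts lay 193 to 247 bp apart. Both genes had a MEIS2 region of both replicates in 5 pairs, a HAND2 region in 3 and a TCF4 peak in 2. Among all protein-coding genes, taken singly, the shares were 4.36%, 30.6% and 60.6%. The windows of 1 kb around paired genes overlap, so 1 peak can reach both. Other close gene pairs were not counted. The pair H2BC4 and H2AC6 had HAND2 folds of 4.05 and 4.08, MEIS2 folds of 9.37 and 4.76 and no TCF4 peak, and its 4 summits fell between positions 26123789 and 26123806, inside H2BC4. MEIS2 replicate 1 reached both genes in 8 of the 9 pairs, and 19.5% of all protein-coding genes taken singly. The remaining pair, H2AC1 and H2BC1, had no peak. Its genes encode histones of the testis and stand apart at the start of the stretch.

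Among H2B genes, H2BC10 (chr6:26272931-26273412) had the highest MEIS2 replicate 1 fold of any histone gene, 15.8 (10.3 to 23.4), and one of 5.67 (2.90 to 10.2) in replicate 2, whose peak had a pile-up of 9 fragments. HAND2 replicates 1 and 2 gave 7.05 (4.27 to 11.0) and 11.1 (7.63 to 15.7) there, and TCF4 gave 5.39 (3.05 to 8.94). All but the MEIS2 replicate 2 summit lay 192 to 334 bp into the gene, and that one lay 802 bp from the start, past its end. H2BC6 was the one histone gene with a HAND2 or TCF4 peak and no MEIS2 peak, a single HAND2 replicate 1 peak of fold 4.57 (2.81 to 7.09).

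H4 genes with a HAND2 peak had a median fold of 4.11 and 4.41 in replicates 1 and 2, and 1 of them, H4C3, the highest HAND2 folds. At H4C3 (chr6:26103933-26104337) the HAND2 fold was 12 (8.38 to 16.6) and 14.8 (10.8 to 20) in replicates 1 and 2, above every other histone gene in both lists. MEIS2 replicates 1 and 2 gave 9.67 (5.58 to 15.8) and 6.62 (3.58 to 11.4), and TCF4 had no peak. All 4 summits fell between positions 26104030 and 26104094, inside the gene. H4C2 (chr6:26026896-26027283) had MEIS2 folds of 9.51 (6.28 to 13.9) and 11.3 (7.05 to 17.4), a HAND2 replicate 1 fold of 3.95, no HAND2 replicate 2 peak and a TCF4 fold of 2.77. Its MEIS2 summits were 151 and 917 bp from the start, so those of the replicates lay apart. H4C4 and H4C11 had TCF4 folds of 5.27 and 4.26 with a MEIS2 replicate 1 peak and no HAND2 peak. The promoters of H4C11 and H4C12 were identical in 94 of 251 stretches of 50 bases (37.5%), and H4C12 had peaks of both HAND2 and both MEIS2 libraries and none of TCF4, so values at these genes are uncertain in the same way as at H2BC13 and H2AC13.

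Among H3 genes, H3C6 (chr6:26224178-26227473) had MEIS2 folds of 11.2 (6.68 to 17.8) and 10.2 (6.18 to 16) in replicates 1 and 2, with summits 340 and 294 bp before the first start, and no HAND2 or TCF4 peak. It was one of 7 histone genes with a MEIS2 region and no peak of the other factors, the others being H2BC3, H3C3, H2AC8, H2AC12, H2AC16 and H1-5. The H3C2 peaks (gene at chr6:26031589-26032099) had HAND2 folds of 4.45 and 4.94, MEIS2 folds of 9.52 and 6.69 and a TCF4 fold of 5.91. The same merged region reaches H2AC4, where a further HAND2 peak gave 9.05 (5.87 to 13.4) and 10.6 (7.38 to 14.7) and a TCF4 peak 8.06. In the region shared by H3C1 and H4C1 (chr6:26020411-26022326) the HAND2 folds were 3.49 and 5.33, the MEIS2 folds 9.33 and 5.18 and the TCF4 fold 7.69. The summits of that region lay in H4C1, apart from those of MEIS2 replicate 2, of which the stronger lay 66 bp beyond H4C1 and the weaker between the genes. At H3C11 and H4C13 a pair of regions had peaks, and the stronger HAND2 folds, 5.23 and 7.19, came from the region at H4C13, where TCF4 had none. H3C10 was the one histone gene with a MEIS2 replicate 2 peak and none of replicate 1, at a fold of 4.75 (2.43 to 8.60).

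Of the H1 genes, H1-2 (chr6:26055740-26056470) had peaks of all libraries. Its MEIS2 folds were 9.54 (5.86 to 14.8) and 8.82 (5.18 to 14.2) in replicates 1 and 2, its TCF4 fold 7.50 (5.14 to 10.6) and its HAND2 folds 2.87 (1.81 to 4.36) and 5.29 (3.46 to 7.77). The MEIS2 summits lay 142 and 542 bp past the 3′ end of H1-2. Those of TCF4 and HAND2 replicate 2 lay 29 and 15 bp before its start, and that of HAND2 replicate 1 lay 122 bp into the gene. H1-4 had MEIS2 folds of 5.04 and 9.59 and the weakest TCF4 peak of the histone genes, 2.60, in a region shared with H2BC5, and its MEIS2 summits lay beyond the gene, that of replicate 1 inside H2BC5. H1-3 had HAND2 folds of 2.79 and 3.63 and MEIS2 folds of 5.89 and 3.43, from MEIS2 peaks that did not overlap. H1-5 had MEIS2 peaks alone, and H1-1 and the testis-specific H1-6 had no peak.

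By class, MEIS2 regions of both replicates reached 3 of 6 H1, 8 of 12 H2A, 9 of 15 H2B, 7 of 10 H3 and 6 of 12 H4 genes, against 4.36% of all genes. MEIS2 replicate 1 alone reached 4, 11, 12, 7 and 10 genes of these classes in the same order, against 19.5% of all genes. HAND2 regions reached 2, 4, 5, 3 and 6, against 30.6% of all genes, so that for H1, H2A, H2B and H3 the share was close to that of all genes. TCF4 peaks reached 2, 3, 4, 5 and 5, against 60.6%. Every class thus held genes with and without each factor.

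Peaks were also counted by position. With gaps over 200 kb as borders, the genes fell into 4 blocks. The block from 26017032 to 26285534 held 32 genes, of which 21 had a MEIS2 region, 13 a HAND2 region and 10 a TCF4 peak. The block from 27807479 to 27893891 held 16 genes with 10, 7 and 9, and each of its genes had a peak of at least 1 library. The 5 genes from 27132316 to 27147562 each had a MEIS2 replicate 1 peak, 2 had a MEIS2 region of both replicates, and 0 had a TCF4 peak or a HAND2 region. Of all protein-coding genes, 4.36% had a MEIS2 region, 30.6% a HAND2 region and 60.6% a TCF4 peak. A MEIS2 replicate 1 peak fell at 19.5% of them, and 32.8% had no peak of any library. Differences between blocks were not tested. The 9 genes without a peak were H2AC1, H2BC1, H1-1, H1-6, H4C6, H4C7, H3C7, H2BC9 and H3C8. The last 5 are consecutive and span 31.0 kb (chr6:26240393-26271413), and H2BC10, with peaks of all 5 libraries, follows directly. At these pile-ups a missing peak means that none was called, not that the factor was absent.

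**Figure D3:**
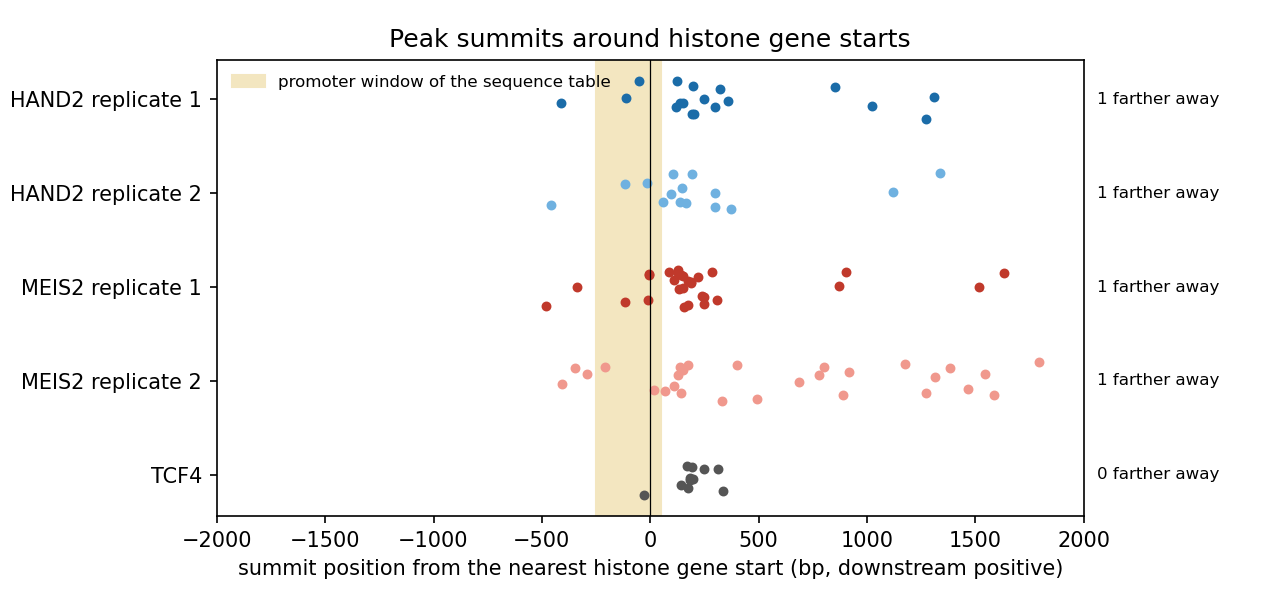
Each point is the summit of a peak at a histone gene, by its distance in bp from the nearest histone gene start (positive downstream), for peaks whose nearest gene has a start in the promoter table; shading marks the promoter window, and 1 peak in each HAND2 and MEIS2 library lies farther out. Of the 11 TCF4 summits, 10 lie downstream of a start and 1 lies 29 bp upstream.

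In each library but MEIS2 replicate 2, most summits lay inside the genes, and few lay in the promoter windows. Summits fell within a histone gene for 14 of 21 and 13 of 20 peaks in HAND2 replicates 1 and 2, 22 of 34 and 14 of 33 in MEIS2 replicates 1 and 2, and 13 of 14 for TCF4. For peaks whose nearest gene has a start in the table, the median distance to the nearest start was 248 and 179 bp in the HAND2 libraries, 182 and 494 bp in those of MEIS2 and 184 bp in that of TCF4. Between 51 and 500 bp downstream lay 11 of 19 and 10 of 16 HAND2 summits, 19 of 30 and 10 of 29 MEIS2 summits and 10 of 11 TCF4 summits. The promoter windows themselves held 2 summits in each HAND2 library, 4 and 2 in the MEIS2 libraries and 1 for TCF4. In MEIS2 replicate 2, 13 of 33 summits lay past the 3′ end of the nearest histone gene, and in MEIS2 replicate 1, 5 of 34 did, a difference between libraries that was not tested.

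**Figure D4:**
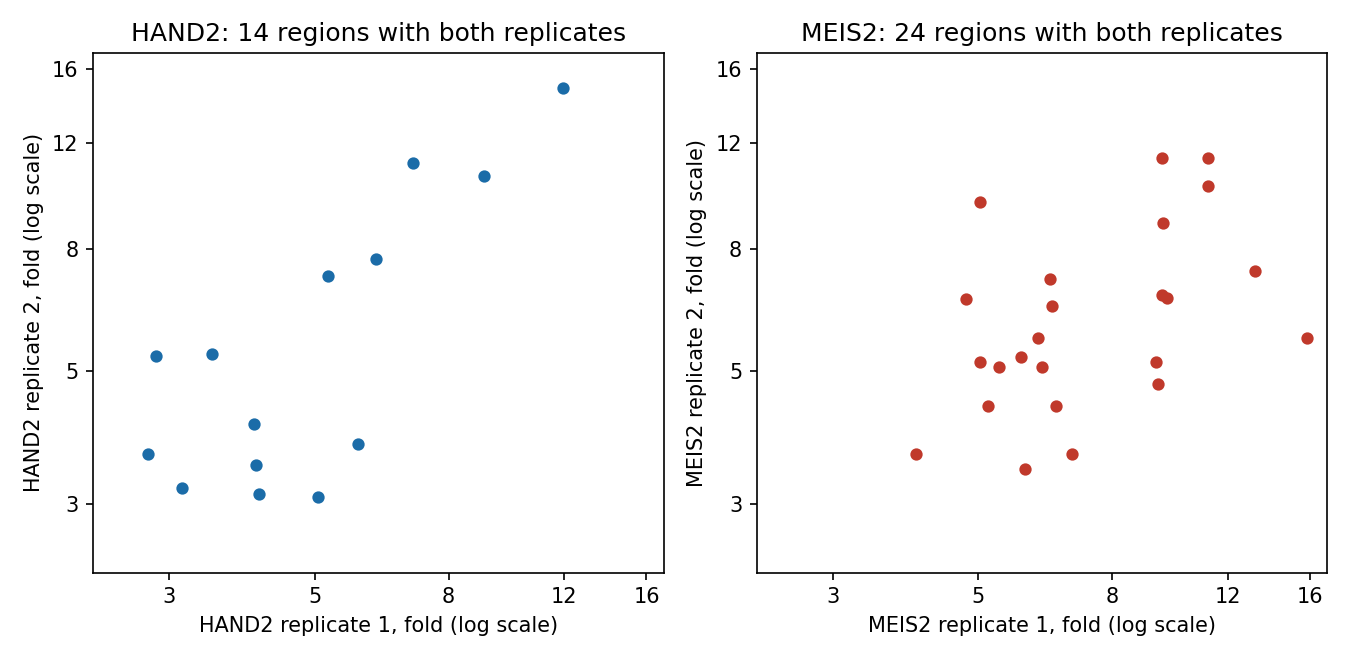
Each point is a merged region at the histone genes with a peak of both replicates, by its fold in replicate 1 and in replicate 2 on log axes, for HAND2 (14 regions) and MEIS2 (24 regions). The HAND2 points lie along a rising line (r = 0.78), and the MEIS2 points scatter (r = 0.46).

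The replicates were compared over regions. Over the 14 regions with peaks of both HAND2 replicates, log2 folds correlated at r = 0.78 (Spearman's rho = 0.61), and summits were a median of 60 bp apart, within 100 bp in 10 regions. Over the 24 regions with both MEIS2 replicates, r was 0.46 (rho = 0.48), and summits were a median of 196 bp apart, within 100 bp in 8 regions. These correlations run across regions that share libraries and a control and describe the lists. Of the 37 histone genes with a peak of both MEIS2 libraries, 4 had peaks that did not overlap (H1-3, H4C8, H2AC15 and H2BC17).

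Overlap between the factors was counted over regions. Of the 23 MEIS2 regions at the histone genes, 12 (52.2%) overlapped a HAND2 region, against 86.4% of all 2311 MEIS2 regions, and 10 (43.5%) overlapped a TCF4 peak, against 45.6%. Of the 15 HAND2 regions at histone genes 13 (86.7%) overlapped a MEIS2 region, against 8.72% of all 23304 HAND2 regions. Of the 14 TCF4 peaks there 11 (78.6%) overlapped a MEIS2 region, against 3.58% of all 30704 TCF4 peaks. The differences were not tested.

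Promoter windows were at hand for 50 of the 55 genes, as 54 windows since 4 genes have several starts; the others are H4C1, H4C3, H2AC12, H3C11 and H3C12. Each motif was searched on both strands and its share is set beside that in all 35116 windows of the table. The windows of head-to-head pairs overlap, as do those of the close starts of H2BC5 and of H2BC12. The same bases can therefore count more than once in the shares of histone windows. The E-box CANNTG, the motif of bHLH factors, was in 39 windows (72.2%), against 68.7% of all. Of its forms, CATCTG was in 16.7% against 14.7%, CAGCTG in 22.2% against 17.9%, and CACGTG, to which MYC proteins bind, in 0 windows against 7.26%. The MEIS motif TGACAG was in 6 windows (11.1%), against 15.8%, and the PBX-linked TGATTGAC in 0 windows, against 0.575%. TGACAG was in 2 of 32 windows of genes with a MEIS2 region (6.25%), against 4 of 22 windows of the other histone genes (18.2%). Those 4 windows belong to H1-3, H3C10, H2AC15 and H2BC15, which each had a MEIS2 peak in replicate 1, replicate 2 or both. The windows of H2AC15 and H2BC15 overlap and hold the same site, so these shares do not part genes with and without MEIS2 peaks. A match is a description, and most summits lay outside these windows.

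Motifs known from histone promoters were searched likewise. CCAAT was in 47 of 54 windows (87.0%), against 34.6% of all, TATAAA in 36 (66.7%), against 11.5%, and the octamer ATTTGCAT in 23 (42.6%), against 1.77%. The cell cycle motif TTTGAA was in 20 windows (37.0%), against 15.2%. The octamer was found in 9 of 11 H2A and 13 of 17 H2B windows, in 1 of 10 H3 windows and in 0 of the H1 and H4 windows. That H3 window belongs to the H3C4 start at 26199293 and is the same window as that of H2AC7. The H1 box AAACACA was in all 6 H1 windows and in no other histone window, against 5.64% of all. CCAAT was in every H1, H2A, H2B and H3 window and in 3 of 10 H4 windows. TATA boxes were in 22 of 32 windows of genes with a MEIS2 region (68.8%) and in 14 of 22 of the others (63.6%).

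**Figure D5:**
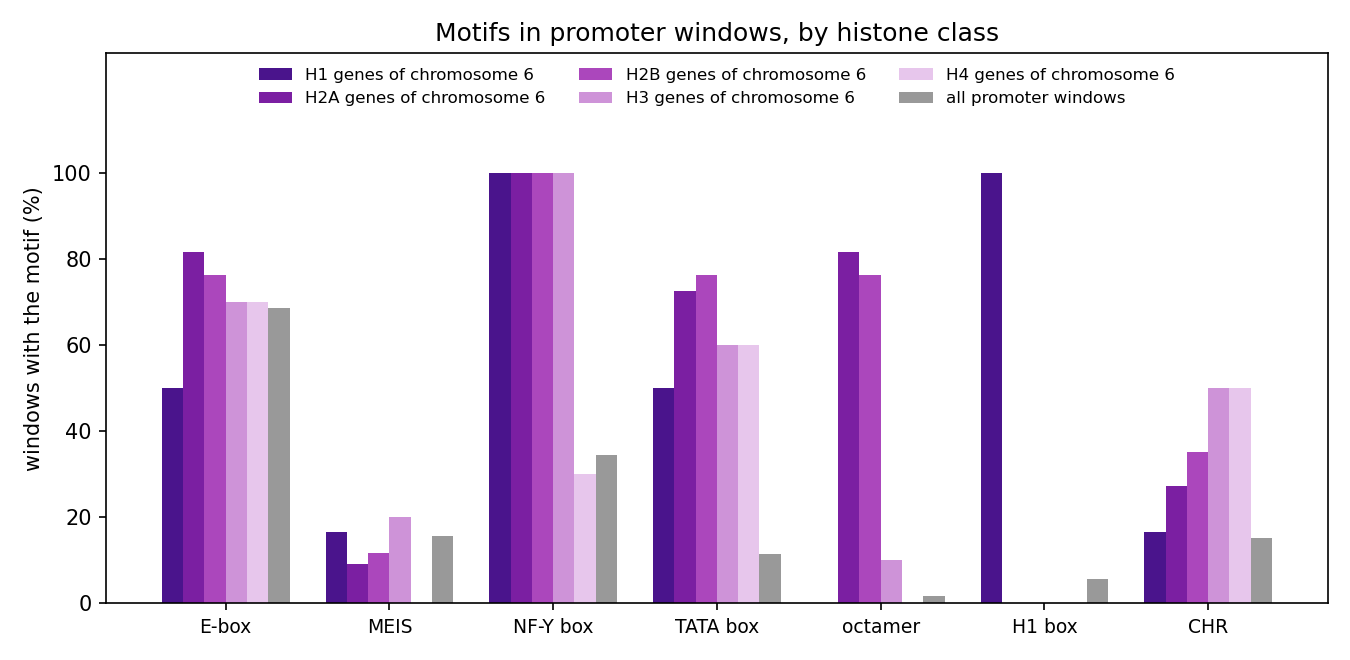
Bars give the percentage of promoter windows with each motif for the 5 classes of chromosome 6 histone genes and, in grey, for all 35116 windows; the NF-Y box is the CCAAT motif and CHR the cell cycle motif. The octamer bars stand at H2A and H2B, the H1 box bar at H1, and the E-box bars run between 50% at H1 and 81.8% at H2A, around the 68.7% of all windows.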

How the data were processed

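CUT&Tag peak lists of HAND2 (2 libraries), MEIS2 (2) and TCF4 (1) were grouped by antibody and numbered as in their titles. Reads were handled with bcl2fastq 2.17, Bowtie2 and MACS3 3.0.0a6 on build hg38, per the submitters' processing notes. The version of Bowtie2, duplicate treatment and peak calling options were not given in the sources used here. The deposited lists show a separate set of peaks per library. Each deposited list gives the authors' fold, a ratio of summit pile-up to local background, and −log10 p and −log10 q, whose lowest value was 2.00 to 2.02. Coordinates are 1-based.

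A whole-number pile-up that gave back the deposited fold and p within 5e-05 (relative) was found for 100% of peaks. The background divided by its smallest unit is called the IgG fragments at a summit, and it is a level rather than a count of fragments. The calculation was tested on simulated data. Gene positions and promoter windows came from RefSeq tables of GRCh38.p14, which hold no exons or UTRs, and no genome sequence was used, so bases at summits were not read. The strand came from the promoter table. A gene counted where a peak overlapped it or 1 kb around it, and a region held overlapping peaks of both replicates. No test was made, since folds of separate lists are not compared and no IgG peak list was used, so counts are set beside those of all genes.

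Genes were named by rule: the 10 highest folds per factor (by the lower replicate), up to 10 genes with peaks of all 5 libraries, and every gene without a peak. Genes named outside it, such as H2BC6 and H3C10, were chosen after their values were seen. The genes and lists were chosen with earlier results of these data known. The alternatives were −log10 q of at least 5, windows of 0.5 and 2 kb, summits inside the window, the 5000 strongest peaks, peaks under 30 IgG fragments, 50% overlap of replicates, and each replicate left out. Python 3.11.15, numpy 2.4.6, pandas 2.3.3 and scipy 1.17.1 were used.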

Additional observations from a re-analysis of the deposited data

How the results depend on the processing

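Counts of histone genes with a HAND2 region, a MEIS2 region, a TCF4 peak, peaks of all 5 libraries or no peak, and of merged regions, stayed within 1.5 times under every alternative except the one keeping the 5000 peaks of highest fold per library. There 1 histone gene had a HAND2 region (6.24% of all genes did), 5 a MEIS2 region (1.74% of all genes), 0 a TCF4 peak (13.7% of all genes) and 0 peaks of all 5 libraries, while 21 (38.2%, against 76.2% of all genes) had no peak and 26 merged regions were left. The peaks at these genes are of middling rank, so a limit on rank removes most of them. A count within 1.5 times can still lose its difference from all genes. At −log10 q of at least 5 the share with a HAND2 region was 27.3%, against 27% of all genes. The share with a MEIS2 region was 58.2% there, against 3.39%. With each replicate left out in turn, the HAND2 count was 20 to 29, the MEIS2 count 33 to 44, the count with all libraries 13 to 14, the count without a peak 9 to 11 and the number of regions 38 to 42. TCF4 stayed at 19, as its single library was never left out. MEIS2 replicate 1 alone gave 44 histone genes against 19.5% of all genes, and replicate 2 alone gave 38 against 14.3%. Of 78 folds of named genes, 72 were the same when the summit had to lie in the window, 2 had no peak left, and those of H3C11 became 2.92 in HAND2 replicate 2 and 3.64 in MEIS2 replicate 2. No paired analysis was possible because the peak lists give no test that a replicate number could enter, and TCF4 has 1 library. Low pile-ups, with a median of 14 fragments at these peaks in MEIS2 replicate 2, limit what a missing peak can show.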

Other observations

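Other genes lie between the histone genes. The stretch holds 100 transfer RNA genes, of which 12 and 15 had a peak in or within 1 kb in HAND2 replicates 1 and 2, 10 and 15 in MEIS2 replicates 1 and 2, and 5 for TCF4. Over all 443 transfer RNA genes of chromosomes 1 to 22 and X, the HAND2 shares were 24.8% and 30.5%, the MEIS2 shares 27.1% and 14%, and the TCF4 share 33.4%. Of 40 pseudogenes in the stretch, 6 (15.0%) and 7 (17.5%) had a peak of MEIS2 replicates 1 and 2, against 0.690% and 0.953% of all 15212 pseudogenes. Of the 30 that lie clear of the histone genes, 0 and 1 did.

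Away from the histone genes the stretch had 38 merged regions, 9 with a peak of MEIS2 replicate 1 and 18 of replicate 2. The highest MEIS2 replicate 2 fold there, 17.6, lay at chr6:26295672-26297186, beyond H4C8, where replicate 1 gave 5.93. A region at SLC17A2, a phosphate transporter gene (chr6:25925496-25927994), had folds of 9.01 and 4.67 in HAND2 replicates 1 and 2, 14.2 in MEIS2 replicate 2 and no MEIS2 replicate 1 peak. The highest TCF4 fold of the stretch, 16.3, lay at ABT1, between histone blocks. HMGN4, a nucleosome-binding protein gene, had HAND2 folds of 3.74 and 3.21, a MEIS2 replicate 1 fold of 8.64 and a TCF4 fold of 6.43.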
